A study of Sus scrofa with 6 samples.

Results

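Xenobiotic and steroid metabolism and ABC exporters of IPEC-J2 cells were represented by 70 gene IDs among the 31908 in the series. They were chosen by the gene symbol in the deposited table: cytochrome P450 enzymes of families 1 to 4 (CYP, 21 IDs), epoxide hydrolases (EPHX, 4 IDs), aldo-keto reductases of family 1 (AKR1, 5 IDs), glutathione transferases with their microsomal relatives (GST and MGST, 11 IDs), sulfotransferases (SULT, 8 IDs), glucuronosyltransferases (UGT, 2 IDs), and exporters of the subfamilies ABCB (6 IDs), ABCC (8 IDs) and ABCG (5 IDs). ABCC2 and ABCB11 were not part of the selection. RNA was sequenced from IPEC-J2 cells, a line of non-transformed jejunal epithelial cells from newborn piglets, in 6 libraries of 24 h of culture. The CON group (3 libraries) was given PBS, and the CDCA group (3 libraries) was treated with 50 μM chenodeoxycholic acid (CDCA), a primary bile acid. The cells were 1 line at 1 dose and 1 time, and both groups carried the same line with no further allele or agent named. The study calls the libraries of a group biological replicates, but no label says that they came from separate cultures, so the p-values measure only the spread between these libraries, which may be technical.

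Cells clear drugs, steroids and dietary chemicals in steps. CYP enzymes oxidise them with electrons from the reductase POR, epoxide hydrolases add water to reactive epoxides, and aldo-keto reductases reduce aldehydes and ketones. GST, SULT and UGT enzymes then attach glutathione, sulfate or glucuronic acid, and ABC exporters, driven by ATP, pump the conjugates and some unchanged drugs out of the cell. Enterocytes are a first barrier of this kind between gut lumen and blood, and bile acids are themselves substrates of CYP3A, SULT2A1, UGT and several exporters.

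Levels were given in TPM (a transcript abundance measure that is divided by transcript length and scaled per library), summed over the listed transcripts of an ID. TPM carry no read counts, so the reads behind each value cannot be taken from the table, which allows no interval for counting error. The listed TPM summed to between 351770 and 366073 per library, out of the 1000000 of a complete library, and the 70 members held between 0.128% and 0.146% of it. An ID listed at 0 is not thereby a silent gene: CCT2, a chaperonin subunit that all cells use, was listed at 0.05 to 0.15 TPM, and LDHB, a lactate dehydrogenase subunit, had an ID with at most 0.26 TPM beside another with 417 to 498 TPM. Both genes were picked after their values were seen. Of the 7 epithelial markers, 6 were listed by symbol, with a summed level of 624 to 648 TPM in CON and 1182 to 1322 TPM in CDCA, of which CLDN4 made 215 to 237 TPM and 765 to 863 TPM. EPCAM, KRT8 and KRT18 were each above 60 TPM in all libraries, whereas the defining markers CDH1 and VIL1 were under 1 TPM. Of the 5 markers of differentiated enterocytes, 4 were listed, with sums of 3.03 to 3.72 TPM in CON and 7.84 to 11.63 TPM in CDCA, a difference that lay in APOA4, an apolipoprotein (1.86, 2.08 and 1.89 TPM in CON versus 6.74, 10.16 and 8.09 TPM in CDCA; log2 fold change 1.65, FDR 0.000127, limma). Markers of fibroblasts summed to at most 1.77 TPM, with LUM at 0, those of immune cells to at most 2.54 TPM, those of endothelial cells to at most 2.37 TPM, and those of hepatocytes to at most 2.56 TPM, with SERPINA1 at 0. The part of CLDN4 and APOA4, the 2 markers called higher, in the results was not tested. In bulk RNA, fewer cells of a kind and less RNA per cell cannot be told apart.

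Most of the members were listed at a low level or at 0. The level required for a test, 1 TPM or more as the mean of the 6 libraries, was reached by 28 of the 70 (40%), compared with 27.3% of all gene IDs. The share differed by family: 7 of 11 GST and MGST, 4 of 6 ABCB, 4 of 8 ABCC, 3 of 5 AKR1, 2 of 5 ABCG, 2 of 4 EPHX, 5 of 21 CYP, 1 of 8 SULT and 0 of 2 UGT members were tested. Of the 42 that were not, 12 were listed at 0 in every library, namely 4 SULT members, both UGT members (UGT8 and UGT2B31), CYP2A19, CYP2F1, CYP2S1, ABCC9, ABCG1 and EPHX4. Together with these 12, 36 members stayed under 0.5 TPM in every library, with a highest value of 0.44 TPM.

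**Figure D1:**
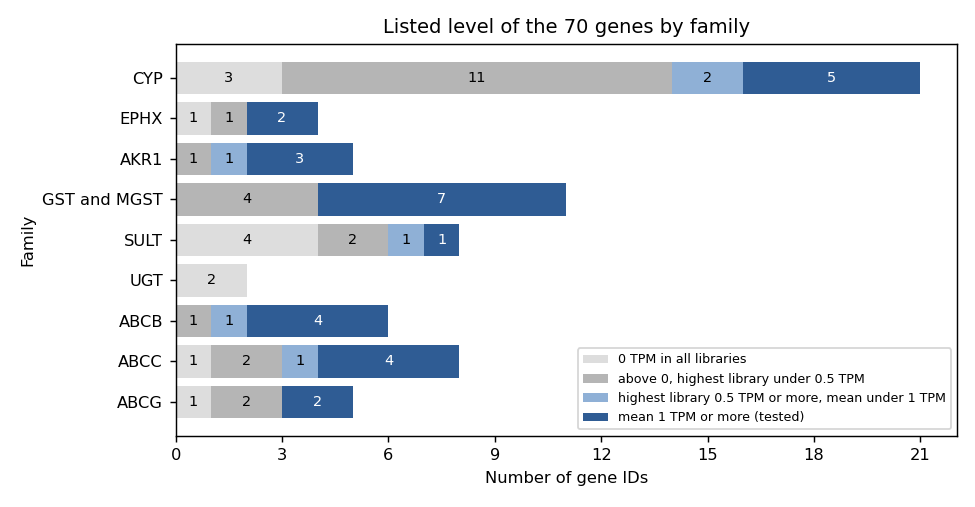
Number of gene IDs per family (horizontal axis), split into those listed at 0 in every library, those whose highest library was under 0.5 TPM, those reaching 0.5 TPM with a mean under 1 TPM, and those tested (mean of 1 TPM or more). GST and MGST had 7 tested members of 11, whereas CYP had 5 of 21 and SULT 1 of 8.

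Among those hardly listed were the CYP genes that are used as readouts of the aryl hydrocarbon receptor. CYP1A1 was listed at 0 in all libraries but CDCA replicate 1, where it was at 0.06 TPM, and CYP1A2 likewise at 0 in all but the same library, at 0.02 TPM. CYP1B1 was at 0.02 to 0.06 TPM in CON versus 0.01 to 0.03 TPM in CDCA. These values are too near 0 for any comparison between the groups.

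The levels of the 28 tested members spanned from 1.26 TPM (GSTZ1) to 203 TPM (MGST3) as means over the 6 libraries. MGST3, a microsomal enzyme with glutathione transferase and peroxidase activity, ranked 223 among all IDs, and AKR1B1, aldose reductase, followed with 56.0 TPM and rank 811. GSTO1 (32.0 TPM), GSTA4 (25.4 TPM) and GSTA1 (21.7 TPM) were also above 20 TPM. No CYP member was above 2 TPM: the highest was CYP2E1 at 1.92 TPM. The replicates agreed closely where levels were high. For the 9 tested members of at least 10 TPM, the coefficient of variation within a group had a median of 3.95% (0.629% to 20.7%), and for the 9 under 2 TPM a median of 19.5% (4.38% to 65.1%).

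**Figure D2:**
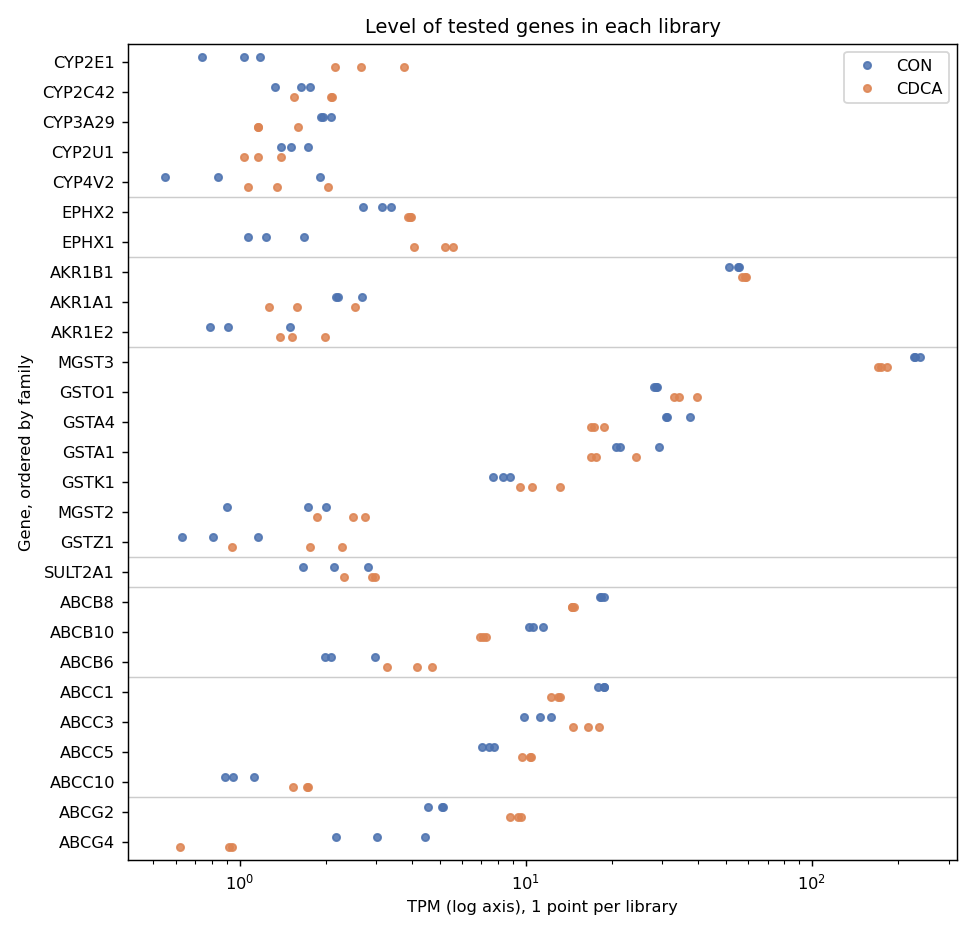
TPM of all but 1 of the tested members in the 6 libraries on a log axis, ordered by family, with CON and CDCA libraries in separate colours. MGST3 stands highest at 171 to 238 TPM, and the 5 CYP members lie between 0.55 and 3.76 TPM.

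To find which members differed between the groups, CDCA was compared with CON by limma on log2(TPM + 1) over the 8708 gene IDs that reached the level for a test, with Benjamini-Hochberg adjustment (FDR). Fold changes below are on that scale, which understates the change of genes of few TPM. A member was called where its FDR was under 0.05 and its log2 fold change over 1 in size. Of the 28 tested members, 10 rose (35.7%) and 8 fell (28.6%) at an FDR under 0.05, beside 29.3% and 23.9% of all tested genes. Only EPHX1 was called higher, beside 3.51% of all tested genes, and only ABCG4 was called lower, beside 3.9%, which makes 2 of 28 in either direction, beside 7.42%. A log2 fold change above 0 was seen for 17 of the 28, beside 54% of all tested genes. The libraries of the groups did not overlap for 19 of the 28 (67.9%), beside 61.5% of all tested genes. These shares were near those of all tested genes. The median log2 fold change of the members was 0.25, beside 0.05 over all tested genes, and 20 of the 28 changed by less than 0.5 on that scale. Most differences in these families were small in size, and they ran in both directions. Regardless of sign, the median log2 fold change was 0.387 for the members, beside 0.323 over all tested genes. By role, all 10 tested ABC members were past the FDR, 5 higher and 5 lower, compared with 8 of the 18 tested enzymes, 5 higher and 3 lower, beside 53.2% of all tested genes in either direction. A member that passed the level filter through 1 group had to differ, and 4 were of that kind: CYP2E1, ABCC10 and GSTZ1 had a mean under 1 TPM in CON, and ABCG4 in CDCA.

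**Figure D3:**
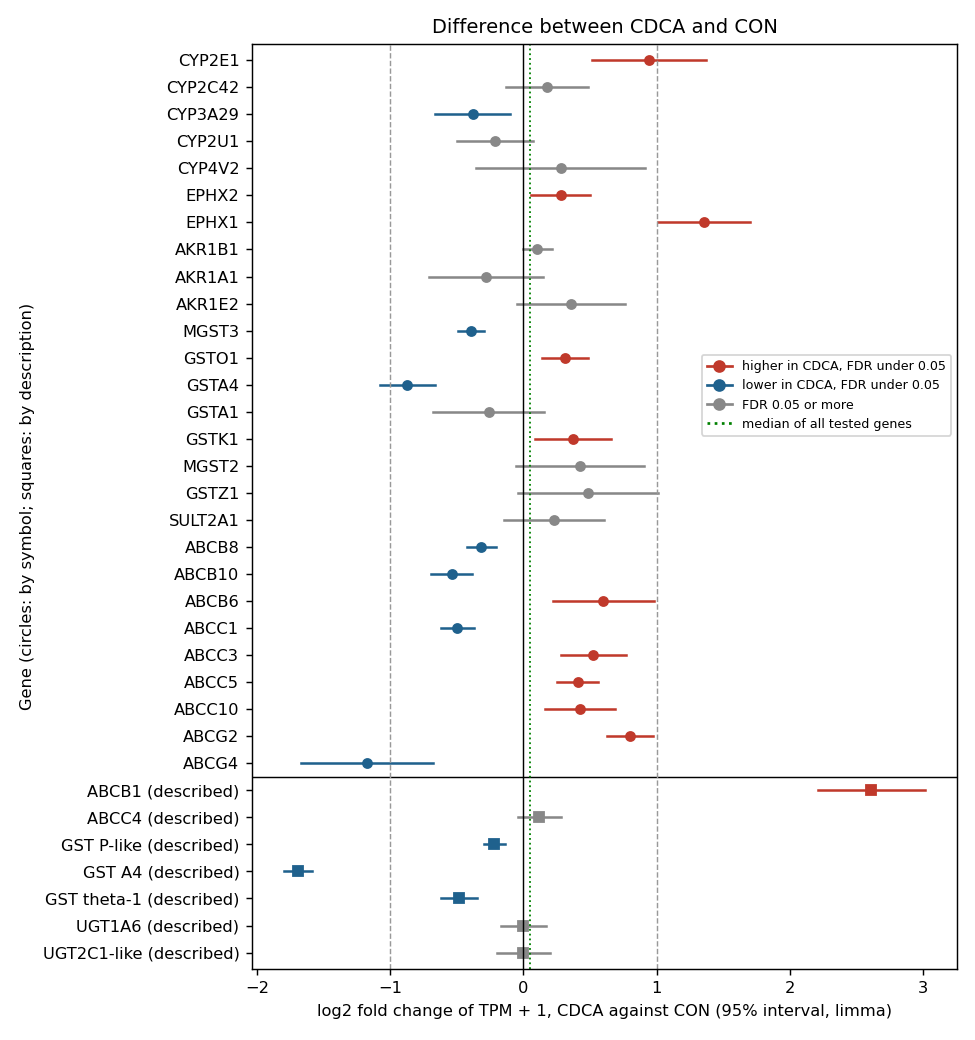
Log2 fold change of TPM + 1 between CDCA and CON with its 95% interval from limma for all but 1 of the tested members (circles) and for 7 IDs recognised from their description (squares). The dotted line is the median of all tested genes (0.05), and the dashed lines mark 1 and -1. Among the circles, EPHX1 lies past 1 and ABCG4 past -1, while most other members lie between -0.5 and 0.6. Among the squares, the IDs described as ABCB1 (2.61) and GSTA4 (-1.69) lie further out.

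Among the enzymes of the first step, EPHX1 was the member called higher in CDCA. EPHX1, the microsomal epoxide hydrolase, which opens epoxides of drugs and aromatic hydrocarbons to diols, was at 1.24, 1.07 and 1.68 TPM in CON versus 5.56, 5.23 and 4.08 TPM in CDCA. Every CDCA library was above every CON library, and the mean rose from 1.33 ± 0.315 to 4.96 ± 0.777 TPM (SD, n = 3), a ratio of 3.73. This was a log2 fold change of 1.35 (SE 0.15, 95% interval 1.01 to 1.70, FDR 0.000368, limma), and with any library left out it lay between 1.27 and 1.47. EPHX2, the soluble enzyme that hydrolyses fatty acid epoxides, was at 3.14, 3.39 and 2.69 TPM in CON versus 3.88, 3.98 and 3.94 TPM in CDCA. The groups did not overlap, but the rise was small (log2 fold change 0.28, FDR 0.0403, limma) and it was not past the FDR when any library other than CON replicate 2 was left out (FDR 0.0727 to 0.0982), with totals that leave out mtDNA-encoded genes (0.186) or on its highest transcript alone (0.475). EPHX3 stayed at or below 0.18 TPM and EPHX4 was listed at 0. The EPHX sum was 4.38, 4.53 and 4.55 TPM in CON and 9.55, 9.21 and 8.15 TPM in CDCA, so that EPHX2 held 68.5% of it in CON and 43.8% in CDCA.

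CYP members moved in both directions. CYP2E1, an ethanol and small-solvent oxidase, was at 1.18, 1.04 and 0.74 TPM in CON versus 2.66, 3.76 and 2.15 TPM in CDCA. The groups did not overlap, and it rose by a log2 fold change of 0.94 (SE 0.18, FDR 0.00459, limma), with a ratio of means of 2.90. It was past 1 without CON replicate 1 (1.01) and without CDCA replicate 3 (1.08). It was also past 1 with a pseudocount of 0.1 TPM (1.43) and with the listed TPM rescaled to 1000000 (1.26). CYP2E1 thus lay just under the limit of a call by a margin that depends on single libraries, the pseudocount and the scaling. It reached the level for a test through CDCA alone. CYP3A29, the main porcine member of the CYP3A subfamily, whose enzymes oxidise many drugs, steroids and bile acids, was at 1.95, 2.09 and 1.93 TPM in CON versus 1.16, 1.16 and 1.6 TPM in CDCA. All CDCA libraries lay below those of CON (log2 fold change -0.38, FDR 0.032, limma), and the FDR was 0.0659 to 0.0944 when any library other than CDCA replicate 3 was left out. CYP2C42 (log2 fold change 0.17, FDR 0.298), CYP2U1 (-0.21, FDR 0.178), a fatty acid hydroxylase, and CYP4V2 (0.28, FDR 0.414), also a fatty acid hydroxylase, overlapped between the groups. CYP4V2 varied most among these, from 0.55 to 1.91 TPM within CON. CYP2J34 was at 0.72, 0.67 and 0.72 TPM in CON versus 0.84, 0.83 and 1.05 TPM in CDCA, under the level of the test. CYP4F8 was lower still, at 0.22 to 0.24 TPM in CON versus 0.56, 0.28 and 0.34 TPM in CDCA.

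None of the 3 tested aldo-keto reductases passed the FDR in limma, and 0 of them had an unadjusted p under 0.05, beside 53.2% of all tested genes past the FDR in either direction. AKR1B1, which reduces glucose and lipid aldehydes, was at 55.38, 55.23 and 51.21 TPM in CON versus 58.67, 58.47 and 56.84 TPM in CDCA. Although the groups did not overlap, the log2 fold change was 0.10 (95% interval -0.00 to 0.21, FDR 0.0944, limma), and it was -0.048 with totals that leave out mtDNA-encoded genes and past the FDR (0.0467) with the listed TPM rescaled to a common total. AKR1A1, an aldehyde reductase, was at 2.67, 2.21 and 2.18 TPM in CON versus 1.27, 1.59 and 2.54 TPM in CDCA (FDR 0.227, or 0.035 without CDCA replicate 3). AKR1E2 was at 1.5, 0.79 and 0.91 TPM in CON versus 1.99, 1.38 and 1.52 TPM in CDCA (FDR 0.121, or 0.0396 without CON replicate 1). Its 2 transcripts of at least 0.5 TPM went in opposite directions, with ratios of CDCA to CON of 0.842 and 2.05. AKR1D1, the steroid reductase of bile acid synthesis, was not tested, at 0.70, 0.44 and 0.78 TPM in CON versus 0.71, 0.59 and 1.08 TPM in CDCA. AKR1C2, which reduces ketosteroids, was listed at 0.09 to 0.15 TPM in CON versus 0.28 to 0.42 TPM in CDCA.

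Glutathione transferases were the most abundant enzymes of the second step, and of the 7 tested 2 rose and 2 fell (28.6% each), near the 29.3% and 23.9% of all tested genes. MGST3 was at 237.97, 228.82 and 226.42 TPM in CON versus 170.67, 182.47 and 173.58 TPM in CDCA. All CDCA libraries were below all CON libraries, and its mean fell from 231 ± 6.09 to 176 ± 6.15 TPM (SD, n = 3; log2 fold change -0.39, SE 0.04, FDR 0.000292, limma). GSTA4, which conjugates the aldehydes of lipid peroxidation, was at 37.58, 30.88 and 31.20 TPM in CON versus 17.28, 16.93 and 18.77 TPM in CDCA. The groups lay far apart, and the mean fell from 33.2 ± 3.78 to 17.7 ± 0.977 TPM (log2 fold change -0.87, SE 0.09, FDR 0.00026, limma), which came to -1.02 with totals that leave out mtDNA-encoded genes.

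GSTO1, an omega-class thioltransferase, was at 28.65, 28.60 and 28.02 TPM in CON versus 32.99, 39.58 and 34.33 TPM in CDCA. It rose without overlap (log2 fold change 0.31, FDR 0.00983, limma), but the FDR was 0.0636 with totals that leave out mtDNA-encoded genes. GSTK1, the kappa-class enzyme of mitochondria and peroxisomes, was at 7.69, 8.30 and 8.83 TPM in CON versus 9.51, 10.54 and 13.19 TPM in CDCA. Its rise (log2 fold change 0.37, FDR 0.0357, limma) was past the FDR without CDCA replicate 1, while the FDR was 0.0528 to 0.0985 without any of the other libraries and 0.148 with totals that leave out mtDNA-encoded genes.

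GSTA1, an alpha-class enzyme that also binds bile acids, was at 21.29, 20.66 and 29.09 TPM in CON versus 17.64, 16.94 and 24.30 TPM in CDCA. Replicate 3 was highest in both groups, and the groups overlapped (log2 fold change -0.26, FDR 0.252, limma). Its 6 transcripts of at least 0.5 TPM had ratios of CDCA to CON from 0.264 to 1.49. MGST2 (log2 fold change 0.42, FDR 0.121), a leukotriene-forming relative of MGST3, and GSTZ1 (0.49, FDR 0.106), which acts in tyrosine breakdown, did not pass the FDR, which for GSTZ1 was 0.0234 without CDCA replicate 3. GSTM3, GSTO2, GSTT4 and MGST1 stayed at or below 0.44 TPM. GSTA1 and GSTA4 lie on chromosome 7 of the RefSeq assembly Sscrofa11.1 with 2 protein-coding genes between them, and reads of such similar genes may be split between IDs. The family sum was 337, 319 and 326 TPM in CON and 253, 271 and 268 TPM in CDCA, a ratio of 0.806, and MGST3 made 70.6% of it in CON.

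Of the sulfotransferases, only SULT2A1 was tested. SULT2A1, which sulfonates bile acids and steroid hormones, was at 2.14, 1.66 and 2.82 TPM in CON versus 2.98, 2.31 and 2.89 TPM in CDCA. The groups overlapped, with a log2 fold change of 0.23 (95% interval -0.15 to 0.60, FDR 0.265, limma). SULT2B1, which acts on cholesterol, was listed at 0 in replicates 1 and 2 of both groups and at 0.88 TPM in CON replicate 3 and 0.63 TPM in CDCA replicate 3. SULT1A3 was at most 0.11 TPM, and the other 5 were listed at 0 or, for SULT4A1, at 0.02 TPM in 1 library.

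Among the ABCB exporters, ABCB8 and ABCB10 differed in direction from ABCB6. ABCB8 was at 18.34, 18.71 and 18.15 TPM in CON versus 14.68, 14.50 and 14.56 TPM in CDCA (log2 fold change -0.32, FDR 0.00129, limma). ABCB10, which takes part in haem synthesis, was at 11.51, 10.25 and 10.57 TPM in CON versus 7.25, 6.94 and 7.11 TPM in CDCA (-0.54, FDR 0.000619). Both, carriers of the inner mitochondrial membrane, fell without overlap. ABCB6, a porphyrin carrier, was at 2.97, 1.98 and 2.08 TPM in CON versus 3.28, 4.72 and 4.18 TPM in CDCA, and rose by a log2 fold change of 0.60 (FDR 0.0178, limma). This rise was not past the FDR without CON replicate 2 (0.0585), CON replicate 3 (0.0556), CDCA replicate 2 (0.0573) or CDCA replicate 3 (0.0534). ABCB9, a lysosomal peptide carrier, was under the level of the test, at 0.76, 0.97 and 0.77 TPM in CON versus 0.47, 0.64 and 0.73 TPM in CDCA.

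In the ABCC subfamily, the multidrug resistance-associated proteins, 3 of the 4 tested members rose (beside 29.3% of all tested genes) and 1 fell (beside 23.9%). ABCC1, which exports glutathione conjugates and leukotrienes, was at 18.76, 18.73 and 17.85 TPM in CON versus 13.13, 12.92 and 12.27 TPM in CDCA. It was lower in every CDCA library (18.4 ± 0.517 to 12.8 ± 0.448 TPM; log2 fold change -0.50, SE 0.05, FDR 0.000326, limma). ABCC3, a basolateral exporter of glucuronides and bile acids, was at 11.25, 9.84 and 12.22 TPM in CON versus 18.04, 14.67 and 16.54 TPM in CDCA. The groups did not overlap, and it rose by a log2 fold change of 0.53 (SE 0.10, FDR 0.00493, limma), which was 0.43 with an FDR of 0.088 on its highest transcript alone. With ABCC1 falling and ABCC3 rising, the more abundant of the pair was ABCC1 in CON and ABCC3 in CDCA, on the TPM scale.

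ABCC5, which exports cyclic nucleotides, was at 7.77, 7.41 and 7.05 TPM in CON versus 10.34, 10.44 and 9.66 TPM in CDCA (log2 fold change 0.41, FDR 0.00211, limma). ABCC10, an exporter of lipophilic drugs, was at 0.95, 1.12 and 0.89 TPM in CON versus 1.54, 1.73 and 1.72 TPM in CDCA (0.42, FDR 0.0163, limma). Both rose without overlap, ABCC10 having reached the level for a test through CDCA alone, and its FDR was 0.0511 without CDCA replicate 2 and 0.0515 without CDCA replicate 3. ABCC8, the sulfonylurea receptor of potassium channels and not a drug exporter, was under the level of the test, at 0.11, 0.93 and 0 TPM in CON versus 1.79, 1.08 and 1.32 TPM in CDCA, again without overlap. ABCC11, ABCC12 and ABCC9 were at most 0.03 TPM.

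The ABCG subfamily held the called fall and a rise of ABCG2. ABCG2, the breast cancer resistance protein of the apical membrane, which exports sulfated steroids, bile acids, urate and many drugs, was at 5.14, 5.08 and 4.56 TPM in CON versus 8.83, 9.64 and 9.39 TPM in CDCA. The CDCA libraries lay well above those of CON, and the mean rose from 4.93 ± 0.319 to 9.29 ± 0.415 TPM, a ratio of 1.88 (log2 fold change 0.80, SE 0.07, FDR 0.000176, limma). Both of its transcripts of at least 0.5 TPM were higher, with ratios of 1.97 and 1.54. ABCG4, a sterol exporter best known from the brain, was at 4.45, 2.18 and 3.02 TPM in CON versus 0.94, 0.62 and 0.92 TPM in CDCA. Every CDCA library was below every CON library, and the mean fell from 3.22 ± 1.15 to 0.827 ± 0.179 TPM (log2 fold change -1.18, SE 0.21, FDR 0.00331, limma), with no call without CON replicate 1 (-0.97). It reached the level for a test through CON alone, so a difference was built into its selection. ABCG5 and ABCG8, the paired sterol exporters of the enterocyte, were at most 0.07 and 0.01 TPM, and ABCG1 was listed at 0.

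**Figure D4:**
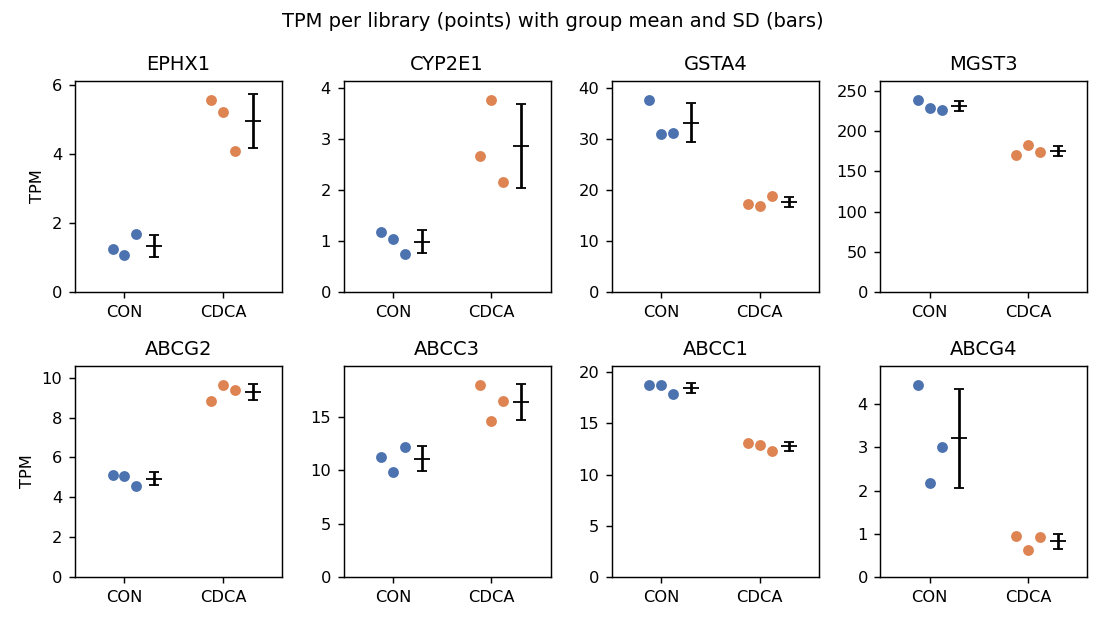
TPM per library (points) with the group mean and SD (bars) for 8 of the members, with each vertical axis from 0. EPHX1, CYP2E1, ABCG2 and ABCC3 were higher and MGST3, GSTA4, ABCC1 and ABCG4 lower in all CDCA libraries than in all CON libraries.

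The symbol rule left out gene IDs of these families that had no symbol in the deposited table. Their description or gene number named 27 such IDs, which were looked up after values had been seen, and 7 of them had a mean of at least 1 TPM. The other 20 were at most 0.21 TPM. ABCB1, P-glycoprotein, the apical exporter of many drugs, was among the 7, at 1.20, 0.93 and 2.06 TPM in CON versus 12.89, 14.13 and 13.09 TPM in CDCA. All CDCA libraries were far above those of CON, and the mean rose from 1.4 ± 0.590 to 13.4 ± 0.666 TPM, a ratio of 9.57 (log2 fold change 2.61, SE 0.17, FDR 4.6e-05, limma). With any library left out, its log2 fold change lay between 2.47 and 2.80. This exceeded the size of every change among the 28 members, and with it the ABCB sum had a ratio of CDCA to CON of 1.01 in place of 0.843.

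A second ID described as GSTA4 was at 77.54, 73.50 and 73.22 TPM in CON versus 22.57, 21.85 and 22.87 TPM in CDCA (log2 fold change -1.69, SE 0.04), also lower in every CDCA library. Both GSTA4 IDs fell. RSEM, which the authors used, divides reads shared by similar transcripts by estimation, so the level of each ID is uncertain. An ID described as a pi-class, GST P-like enzyme was the most abundant of all, at 713.25, 712.69 and 707.65 TPM in CON versus 608.60, 628.42 and 597.06 TPM in CDCA (-0.22, FDR 0.00169, limma), and one described as GST theta-1 was at 20.73 to 21.06 TPM in CON and 13.64 to 15.16 TPM in CDCA (-0.49, FDR 0.000519, limma). With these IDs the GST and MGST sum had a ratio of 0.804, close to the 0.806 of the members alone. UGT1A6, an enzyme that glucuronidates phenols, was at 12.64, 12.18 and 13.47 TPM in CON versus 12.45, 12 and 13.87 TPM in CDCA. It overlapped between the groups (FDR 0.998, limma), as did the UGT2C1-like ID (FDR 0.991) and ABCC4, an exporter of nucleotides and bile acids (log2 fold change 0.12, FDR 0.187). The UGT transcripts of these cells were thus listed under IDs that the symbol rule missed.

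Lists of genes that work with these enzymes and exporters, which were written with earlier results of these data known, were taken from the same comparison. Of the receptors and their partners, 11 of 24 genes were tested, and 7 rose and 1 fell, beside 29.3% and 23.9% of all tested genes. NR3C1, among those 7, had a mean of 0.757 TPM in CON and 1.4 TPM in CDCA. It reached the level for a test through CDCA alone and so had to differ. The receptors that classically induce CYP genes were hardly listed. AHR, the aryl hydrocarbon receptor, was at 0.75, 0 and 1.12 TPM in CON versus 0.15, 0.30 and 0 TPM in CDCA, NR1I2, the pregnane X receptor, was listed at 0 in CON, with 0.12, 0 and 0.02 TPM in CDCA, and NR1I3, the constitutive androstane receptor, was at 0.16 to 0.35 TPM in CON and 0.18 to 0.35 TPM in CDCA. NFE2L2 (NRF2), the transcription factor of the antioxidant response, was at 40.25, 40.61 and 38.04 TPM in CON versus 67.97, 63.74 and 71.54 TPM in CDCA. It rose without overlap (log2 fold change 0.76, FDR 6.8e-05, limma). MAFF, a small MAF protein that pairs with NRF2, was at 4.13, 4.47 and 3.42 TPM in CON versus 15.37, 17.07 and 14.97 TPM in CDCA and was the gene of this list called higher (1.75, FDR 2.8e-05). The gene of the list that fell was HNF4A, a factor of hepatic and intestinal differentiation, from 6.03, 5.73 and 6.16 TPM in CON to 2.30, 3.53 and 3.26 TPM in CDCA (-0.80, FDR 0.00223); it was named after its value was seen.

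Among genes of electron and cofactor supply, 13 were tested, 5 rose (beside 29.3% of all tested genes) and 4 fell (beside 23.9%). POR, which passes electrons to the microsomal CYP enzymes, was at 0.81, 5.24 and 3.89 TPM in CON versus 10.02, 10.54 and 10.41 TPM in CDCA. All CDCA libraries were above CON, whose libraries differed widely (log2 fold change 1.57, SE 0.43, FDR 0.0202, limma). With any library left out, the log2 fold change of POR lay between 1.035 and 1.928. Its FDR in limma was 0.0537 without CDCA replicate 2 and 0.053 without CDCA replicate 3. BPNT2, a Golgi phosphatase that clears a by-product of sulfation, was at 16.74, 6.86 and 11.24 TPM in CON versus 5.20, 4.02 and 3.56 TPM in CDCA (-1.20, FDR 0.0124), below CON in every CDCA library. It was the gene of this list called lower, with no call without CON replicate 1 (-0.91). PAPSS2, which makes the sulfate donor, was not tested, at 0.18, 0 and 0.14 TPM in CON versus 1.33, 1.80 and 1.25 TPM in CDCA, and UGDH, which makes the glucuronic acid donor, was listed at 0 in all libraries.

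Of the other enzymes of the first step, 17 IDs were tested, 11 rose (beside 29.3% of all tested genes) and 4 fell (beside 23.9%). ALDH3A1, an aldehyde dehydrogenase, was called higher, from 0.43, 0.50 and 0.60 TPM in CON to 3.35, 2.78 and 3.21 TPM in CDCA (log2 fold change 1.44, FDR 9.2e-05, limma). Its mean in CON was under 1 TPM, so it reached the level for a test through CDCA and had to differ. NQO1, a quinone reductase and a common target of NRF2, named after its value was seen, was at 64.93, 62.10 and 66.85 TPM in CON versus 112.67, 116.30 and 116.62 TPM in CDCA (0.82, FDR 1.7e-05). Both were above CON in every CDCA library. Of other conjugating enzymes, 3 were tested and 2 fell, beside 23.9% of all tested genes. HNMT, which methylates histamine, was called lower, from 17.78, 15.28 and 15.25 TPM in CON to 6.50, 5.82 and 7.28 TPM in CDCA (-1.18, FDR 0.00011). No gene was called in the remaining lists. Of steroid and sterol enzymes, 5 of 16 rose and 3 fell, beside 29.3% and 23.9% of all tested genes. CYP26B1, among those 5, had a mean of 0.767 TPM in CON and 1.38 TPM in CDCA, so it reached the level for a test through CDCA alone. Of SLC drug carriers, 1 of 4 rose and 1 fell, and of other ABC proteins, 4 of 7 rose and 0 fell, beside the same shares.

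**Figure D5:**
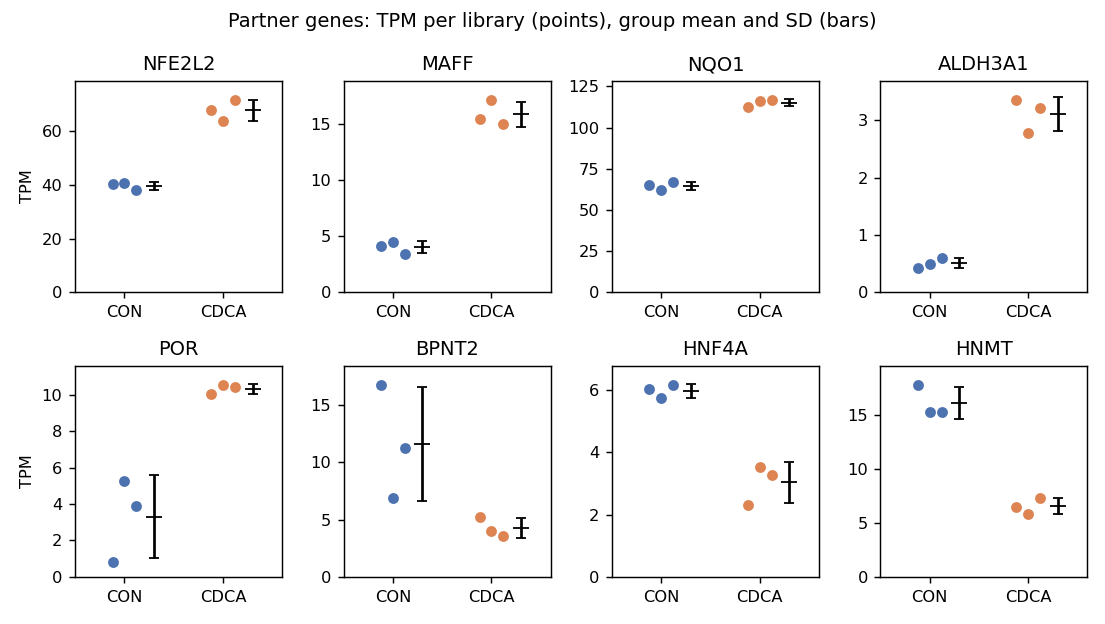
TPM per library (points) with group mean and SD (bars) for 8 genes that work with the members, each vertical axis starting at 0. NFE2L2, MAFF, NQO1, ALDH3A1 and POR were higher in every CDCA library than in every CON library, and BPNT2, HNF4A and HNMT were lower, with POR and BPNT2 spread widely within CON.

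Summed over all 70 members, the level in CDCA was 0.890 of that in CON, and without MGST3 it was 0.995. By family, the ratio of sums was 0.806 for GST and MGST, 0.843 for ABCB, 1.24 for CYP, 1.24 for ABCG and 2.0 for EPHX, with no overlap of the groups' sums, except that those of ABCG overlapped with totals that leave out mtDNA-encoded genes (8.45 to 11.1 TPM in CON, 10.4 to 10.8 TPM in CDCA, ratio 1.12) and with median ratio scaling. With the described IDs added, the ABCB sums overlapped too (68.31 to 73.5 TPM in CON, 71.45 to 73.24 TPM in CDCA, ratio 1.01). The SULT sums, with a ratio of 1.17, overlapped between the groups. For ABCC (1.11) and AKR1 (1.08) the ratio turned to 0.995 and 0.968 with totals that leave out mtDNA-encoded genes, a scaling that shifted the median log2 fold change of all genes by -0.13. The CYP sum was 8.54, 7.77 and 8.95 TPM in CON and 10.18, 10.59 and 10.67 TPM in CDCA, with CYP2E1 making 11.7% of it in CON and 27.3% in CDCA. The ABCG sum was 91.4% ABCG2 in CDCA, compared with 60.3% in CON, where ABCG4 held most of the rest.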

How the data were processed

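RNA-seq of 3 CON and 3 CDCA libraries of IPEC-J2 cells was used. Transcript abundance was estimated by the authors with RSEM, and the deposited values are TPM for 63041 transcripts of 31908 gene IDs. The submitters' processing notes name Bowtie 0.12.2 and the build mm10, a mouse build although the cells are porcine, with no role given for either, and the annotation release is not given in the sources used here. No deposited column of values was left unused. The TPM of the listed transcripts were summed per gene ID. Groups were taken from the labels. Members were chosen by symbol, and the members and all lists were chosen with earlier results of these data known. CDCA was compared with CON in R 4.3.3 with limma 3.58.1 (lmFit, eBayes with a trend) on log2(TPM + 1), with a pseudocount of 1 TPM, over IDs with a mean of at least 1 TPM, with Benjamini-Hochberg adjustment. The authors used edgeR, which needs counts, so it was not used here. The steps were tested on simulated data with the same noise at every level. The simulation thus did not represent the wider spread of members of few TPM.

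The text names every member with an FDR under 0.05, the 3 members of highest mean TPM in each family, members under 1 TPM whose highest library reached 0.5 TPM, and, of other lists, called genes with AHR, NR1I2, NR1I3, NFE2L2, POR, PAPSS2 and UGDH. Other names were added after values were seen. Alternatives were another pseudocount, other filters, 3 other scalings, the replicate number as a block, the highest transcript, an eBayes fit without a trend, symbols from a reference table, and each library left out. IDs without a deposited symbol, read from their description, were added after seeing the data. The order of neighbouring genes came from RefSeq (Sscrofa11.1), without coordinates, since the build of the files is not settled. Values of 1 member are not reported here, though it is in the counts and sums.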

Additional observations from a re-analysis of the deposited data

How the results depend on the processing

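For the count of members that rose at the FDR, 10 in all, the other alternatives with all libraries gave 7 to 12, but with a mean of at least 5 TPM required, which left 13 members to test, 5 rose and 0 were called in either direction by limma, since EPHX1 and ABCG4 are below that level. The count of members called higher was 2 with a pseudocount of 0.1 TPM (CYP2E1 added) and 3 with the listed TPM rescaled to 1000000 (CYP2E1 and ABCC8 added), and the count called lower was 2 with totals that leave out mtDNA-encoded genes (GSTA4 added). With the described IDs added, which made 35 to test, 2 were called higher and 2 lower. Of the 7 described IDs tested, 2 were called (28.6%), beside 7.42% of all tested genes. With 1 library left out, 6 to 9 members rose (6 without CDCA replicate 2), 6 to 8 fell, 1 to 2 were called higher and 0 to 1 called lower (0 without CON replicate 1). AKR1B1 had a log2 fold change of -0.048 in place of 0.10 with totals that leave out mtDNA-encoded genes. Under those totals the ratio of sums was 0.757 for ABCB, 0.995 for ABCC, 0.968 for AKR1, 1.12 for CYP, 1.80 for EPHX, 0.725 for GST and MGST, 0.8 for all members and 0.895 without MGST3, and with median ratio scaling it was 0.858 for all members and 0.959 without MGST3. Apart from the filter and the added IDs, the cause of these changes was not tested.

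No label says whether the replicate numbers pair the libraries. Deviations of same-numbered libraries from their group means correlated with r of -0.04, -0.09 and -0.05. With so few libraries, these values cannot show that there was no pairing. With the replicate number as a block, 8 members rose and 8 fell, with 1 called in each direction, ABCB6 (FDR 0.0535), EPHX2 (0.0755) and CYP3A29 (0.0698) were not past the FDR by limma, and GSTA1, with a log2 fold change of -0.26, was (0.0139). Over 401 alternative values of the log2 fold changes of the 28 tested members, 355 kept direction and side of the threshold, 40 lost the FDR, 5 gained it and 1, AKR1B1, turned. TPM carry no read counts, so the precision of the low members is given here only by their spread between libraries.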
